A study of Homo sapiens with 4 samples.

Results

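The genes described here encode WNT ligands, their Frizzled receptors and LRP co-receptors, the R-spondins and their LGR receptors, the secreted antagonists of the pathway, and AXIN2, a feedback target. Members were all rows of the count table whose Ensembl identifier belongs to a protein-coding gene with a symbol of these families, which gave 49 of 60234 genes. They were 19 ligands, 10 Frizzleds, 2 co-receptors, 4 R-spondins, 3 LGR receptors, 10 antagonists and AXIN2. The study differentiated human embryonic stem cells toward cardiomyocytes in spin embryoid bodies, which are aggregates formed by centrifugation, with or without retinoic acid (RA). The line is heterozygous for eGFP at the NKX2-5 locus, so GFP marks cells that use the promoter of this cardiac transcription factor, and all groups carry that reporter and a single intact NKX2-5 allele. The RA groups received 1 µM RA from day 4 to day 7 and the control (CTR) groups received DMSO, the solvent. At day 31 each culture was sorted by GFP, and RNA of the RA GFP-positive, RA GFP-negative, CTR GFP-positive and CTR GFP-negative cells was sequenced. The authors describe the RA GFP-positive cells as atrial-like and the CTR GFP-positive cells as predominantly ventricular-like. Their classifier still placed the RA GFP-positive cells with heart ventricle, at a lower score than the CTR cells.

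Each group had 1 library, so no difference has a replicate check and no test was made. The libraries held 28643091 reads on genes in CTR GFP-positive, 28125727 in RA GFP-positive, 4371101 in CTR GFP-negative and 26222787 in RA GFP-negative cells. The CTR GFP-negative library was thus the shallowest, and the others were 6.0 to 6.55 times as deep. Levels are TMM-scaled CPM, and whenever 4 levels are listed they stand in the order CTR GFP-positive, RA GFP-positive, CTR GFP-negative, RA GFP-negative. The floor, 3 reads, corresponded to 0.105, 0.112, 0.639 and 0.117 CPM. Ratios of CPM carry 95% Clopper-Pearson intervals of the 2 counts, which cover counting error only. Of the members, 43 had at least 1 CPM in at least 1 library. At least 4 reads were found for 42, 43, 41 and 45 members, and the summed level of all members was 1783, 2309, 2049 and 2646 CPM.

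WNT proteins are secreted, lipid-modified signals that bind Frizzled receptors; with LRP5 or LRP6 they stabilise β-catenin, and with other receptors they steer cell polarity and movement without it. SFRP proteins, FRZB and WIF1 bind the ligands outside the cell, DKK proteins act mainly on the LRP co-receptors, and R-spondins acting through LGR receptors keep Frizzleds at the cell surface. In the embryo WNT signalling through β-catenin promotes the formation of mesoderm and is later held down while cardiac progenitors become cardiomyocytes, and WNT5A and WNT11 are ligands of the β-catenin-independent branch with known roles in the heart.

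The sort labels were checked against cell type markers. The 8 cardiomyocyte genes summed to 18051, 15408, 835 and 396 CPM, with MYH6, the atrial-type myosin heavy chain, the most abundant in both GFP-positive libraries, so the GFP-positive fractions were rich in cardiomyocyte RNA. The 7 stroma and fibroblast genes summed to 3966, 15165, 32089 and 61591 CPM, and COL3A1, a fibrillar collagen, led them in every library. All 7 were at least 2-fold higher in RA than in CTR GFP-positive cells, and their sum was 3.82 times as high. The GFP-negative fractions held markers of several cell types. The 9 gut and liver endoderm genes summed to 28.2, 76.3, 104 and 832 CPM, the 8 neural and eye genes to 15.8, 56.2, 236 and 108 CPM, and the 4 pigment cell genes to 99.3, 79.2, 596 and 67.0 CPM. Endothelial genes (4) summed to 16.0, 13.2, 265 and 233 CPM and epicardial genes (5) to 57.3, 66.4, 574 and 342 CPM. Smooth muscle genes (4) summed to 476, 1057, 731 and 1387 CPM, cell cycle genes (3) to 21.3, 47.2, 91.6 and 131 CPM, and pluripotency genes (3) to 0.244, 2.21, 2.13 and 27.1 CPM. In these bulk samples, fewer cells of a type and less RNA per cell cannot be told apart.

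Most members that differed between the sorted fractions were lower in the GFP-positive cells. In CTR cultures 20 members were at least 2-fold lower in the GFP-positive than the GFP-negative fraction, on the scale of log2(CPM + 1), where 16.1% of the 19789 genes over 1 CPM in some library were, and 3 were at least 2-fold higher, where 13.4% of all genes were. In RA cultures 22 were lower, with 12.9% of all genes, and 4 were higher, with 9.33%. The median difference of the 43 members was -0.74 in CTR and -1.01 in RA on the log2 scale, and that of all genes was 0.03 and 0.01. The 14 members lower in both cultures were WNT2B, WNT3, WNT4, WNT6, WNT7B, WNT9A, WNT10A, FZD10, RSPO1, RSPO2, LGR6, SFRP2, SFRP4 and DKK2 (32.6% of the 43, and 8.07% of all genes), and WNT5B alone was higher in both (2.33%, and 5.80% of all genes). Depth matters for 2 of these: after thinning to equal reads the log2 difference of WNT5B in RA cultures was 0.84 in place of 1.13, and that of WNT10A in CTR cultures was -0.98 in place of -1.24. The 1 CPM added matters as well: with 5 CPM added 14 members were lower in CTR and 12 in RA cultures, and of those lower in both 7 were left (WNT2B, WNT6, WNT7B, WNT9A, RSPO1, SFRP2 and DKK2). A gene that passes the filter through a single library tends to differ, so these counts describe the 43 genes and support nothing further.

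Fewer members differed between RA and CTR. In GFP-positive cells 7 members were at least 2-fold higher with RA (WNT4, FZD5, FZD7, LGR5, SFRP1, SFRP5 and DKK2), beside 4.49% of all genes, and 2 were lower (FZD1 and RSPO3), beside 1.87%. In GFP-negative cells 10 were higher (WNT6, WNT10A, WNT10B, FZD9, LGR6, SFRP1, FRZB, DKK1, DKK2 and WIF1), beside 8.19%, and 5 were lower (WNT3A, WNT7B, WNT8B, RSPO1 and SFRP2), beside 7.17%. On the log2(CPM + 1) scale, SFRP1 and DKK2, both antagonists, were at least 2-fold higher in both fractions (4.65% of the 43, and 1.43% of all genes), and no member was at least 2-fold lower in both (0.263% of all genes). These sets depend on the 1 CPM added and on the filter. The DKK2 call in GFP-positive cells was lost with 5 CPM added and after thinning (0.99), and LGR6 and WNT6 joined with 0.25 CPM added. In GFP-negative cells WNT10B was lost and RSPO2 gained when library size replaced TMM, with or without mitochondrial genes. WNT7B was lost after thinning, and 5 CPM added left 6 higher and 1 lower. WNT3A, WNT10B and WIF1 passed the filter through a single library, the one where each was high, which favours a call. With a filter of 5 CPM they were lost, leaving 8 higher (6.61% of all genes over 5 CPM) and 4 lower (4.42%). By the plain ratio of CPM, WNT7B and WNT8B were over 2-fold lower with RA in both fractions. In GFP-positive cells this was 4.4 times for WNT7B, on 7 and 33 reads (1.91 to 11.8), and 2.63 times for WNT8B, on 11 and 31 reads (1.29 to 5.80). By the same ratio WNT6 and LGR6 joined SFRP1 and DKK2 as over 2-fold higher with RA in both fractions. Their ratios in GFP-positive cells were 2.80 for WNT6, on 34 and 13 reads (1.44 to 5.79), and 10.7 for LGR6, on 20 and 2 reads (2.60 to 94.5). The median difference of the 43 members was -0.04 with GFP and 0.11 without, against 0.01 and 0.05 for all genes.

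**Figure D1:**
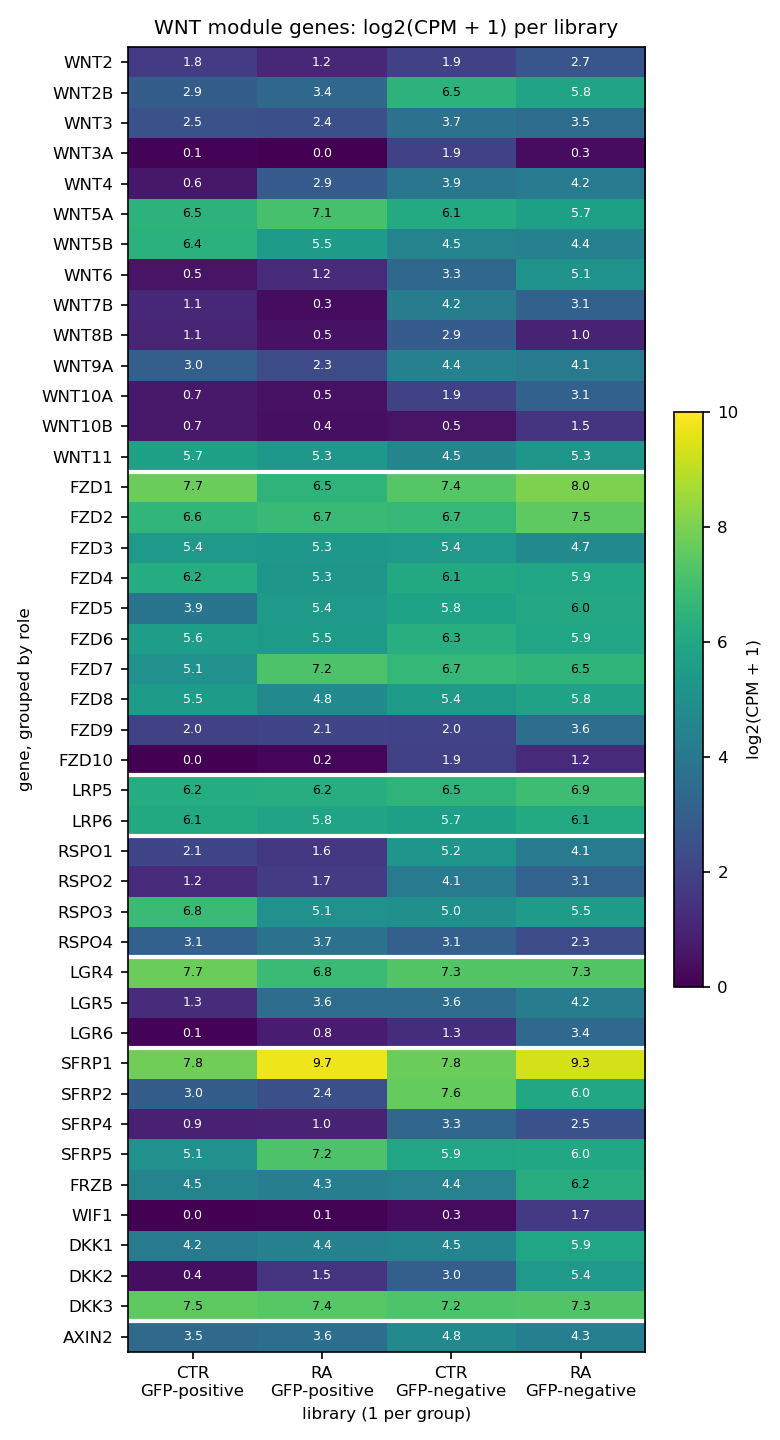
Level of the 43 members over 1 CPM, as log2(CPM + 1), in the 4 libraries (columns, 1 library per group), with white lines between roles. SFRP1 has the brightest cells, in the RA libraries (852 and 648 CPM), and RSPO3 is highest in CTR GFP-positive cells (113 CPM).

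Among the ligands, WNT5A, WNT5B and WNT11 made up most of the ligand RNA of the GFP-positive cells. Per kilobase of merged exons, WNT11 came first in CTR GFP-positive cells with 36.8% of the summed ligand level, followed by WNT5B with 32.8% and WNT5A with 21.0%. In RA GFP-positive cells the order was WNT5A with 36.8%, WNT11 with 31.5% and WNT5B with 20.6%. In GFP-negative cells the ligand RNA was spread over more genes: WNT6 led with 28.2% in RA, and in CTR WNT5A and WNT11 had 16.9% each. With the length of the MANE Select transcript, chosen as a second length after the data were seen, WNT5B came first in CTR GFP-positive cells (36.6 CPM per kb, WNT11 27.1), and WNT11 came first in both GFP-negative libraries, by less than 1 CPM per kb.

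WNT5A was at 88.3, 137, 67.5 and 50.7 CPM. With RA it was 1.55 times as high in GFP-positive cells (95% interval 1.47 to 1.63) and 0.751 times as high in GFP-negative cells (0.664 to 0.852). The RA GFP-positive library was thus the highest, at 2.70 times its GFP-negative counterpart (2.53 to 2.88). WNT5B, a close relative of WNT5A, was at 81.8, 45.3, 21.1 and 20.1 CPM. It was higher in the GFP-positive cells of both cultures, 3.88 times in CTR (3.17 to 4.79) and 2.25 times in RA (2.03 to 2.5), while the GFP-negative libraries were alike. WNT11, which acts in gastrulation movements and heart formation, was at 51.4, 38.9, 22.4 and 38.2 CPM. It was 2.30 times as high in GFP-positive as in GFP-negative CTR cells (1.88 to 2.83), and in RA cultures the fractions were level, with a ratio of 1.02 (0.932 to 1.11). Of the exon bases of WNT11, 8.6% are shared with another gene.

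The remaining ligands were mostly GFP-negative. WNT2B was at 6.70, 9.27, 87.3 and 55.6 CPM, 13.0 times lower in the GFP-positive than the GFP-negative cells of CTR cultures (11.0 to 15.5) and 5.99 times lower in RA (5.23 to 6.89). It shares 21.5% of its exon bases with ST7L on the other strand, which leaves its counts uncertain. WNT6, known as an epithelial ligand, was at 0.454, 1.27, 9.16 and 33.1 CPM, and the RA GFP-negative library stood above the others. It was 3.62 times as high there as in CTR GFP-negative cells (2.66 to 5.04). WNT4, a ligand of kidney and gonad development, was at 0.558, 6.32, 14.1 and 17.0 CPM. The low value was that of CTR GFP-positive cells, with 16 reads against 169 in RA GFP-positive cells, a ratio of 11.3 (6.77 to 20.3), and WNT4 had similar levels in the GFP-negative libraries, with a ratio of 1.21 (0.931 to 1.59).

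WNT9A was at 7.22, 3.85, 20.2 and 16.1 CPM and WNT3, a ligand of the β-catenin branch needed for mesoderm formation, at 4.61, 4.37, 12.4 and 10.7 CPM. WNT7B, a ligand of epithelia and the nervous system, was at 1.15, 0.262, 17.9 and 7.64 CPM, 2.34 times lower with RA in GFP-negative cells (1.79 to 3.04). WNT10A was at 0.593, 0.374, 2.77 and 7.72 CPM, so that it too was highest in RA GFP-negative cells. WNT8B, a gene of the forebrain, was at 1.08, 0.411, 6.60 and 0.974 CPM and was highest in CTR GFP-negative cells, where it was 6.78 times as high as with RA (3.87 to 12). In the same GFP-negative libraries 6 of the 7 neural and eye genes over the filter and all 4 pigment cell genes were at least 2-fold lower with RA; PAX6 was at 96.3 CPM in CTR and 8.50 CPM in RA cells. The seventh, STMN2, was higher with RA, at 16.8 and 72.7 CPM. The cardiomyocyte sum was 2.11 times lower with RA in these libraries, with 4 of 8 genes at least 2-fold lower. The epicardial sum was 1.68 times lower, with 1 of 5 genes at least 2-fold lower. The part of these lists in the differences of WNT3A, WNT7B, WNT8B, RSPO1 and SFRP2 was not tested. WNT2 was at 2.37, 1.23, 2.77 and 5.42 CPM and shares 3.88% of its exon bases with CFTR.

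WNT3A and WNT10B rested on few reads. WNT3A had 2, 0, 13 and 7 reads and its level was 10.1 times lower with RA in GFP-negative cells (3.76 to 30.0), and WNT10B had 18, 9, 2 and 48 reads, with a ratio of 4.39 between the GFP-negative libraries (1.15 to 37.3). WNT1, WNT7A, WNT8A, WNT9B and WNT16 stayed below 1 CPM in every library, with no more than 18 reads in any of them.

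**Figure D2:**
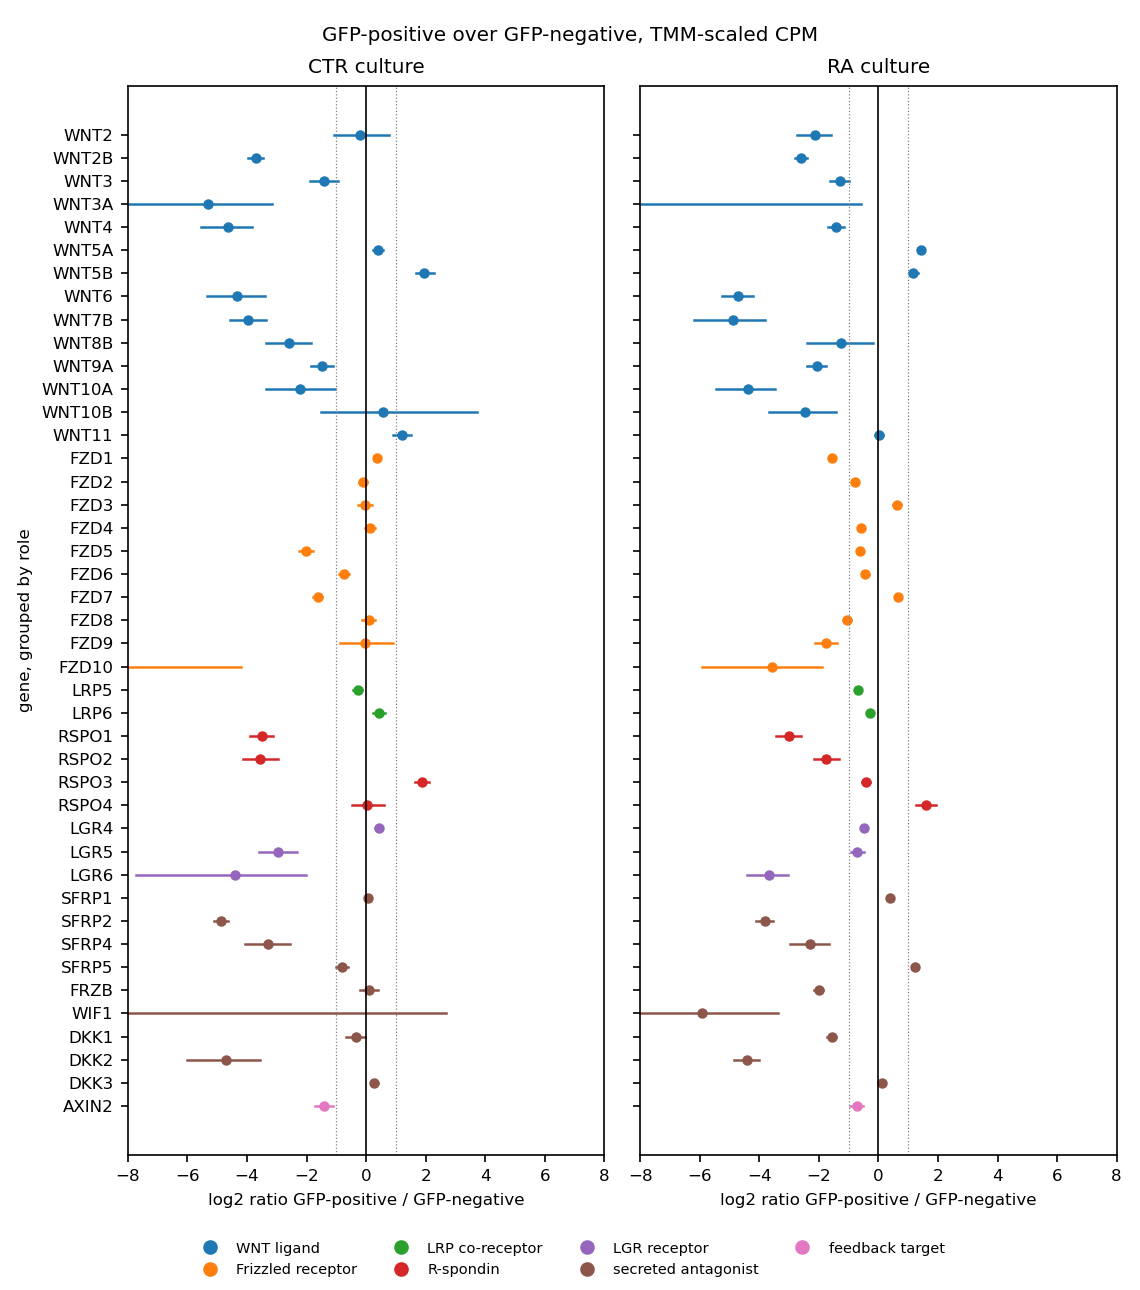
Ratio of GFP-positive to GFP-negative CPM on a log2 axis for the 43 members, in CTR (left) and RA (right) cultures; lines are 95% counting intervals, clipped at the plot edge, and members without a point had 0 reads in a library. Most points lie left of 0, while WNT5B is to the right in both panels (3.88 and 2.25 times).

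Of the Frizzled receptors all but FZD10 had over 1 CPM in every library, and the receptor that led them differed. Per kilobase, FZD1 came first in CTR GFP-positive cells with 30.4% of the summed Frizzled level and FZD7 in RA GFP-positive cells with 30.1%, and FZD2 led both GFP-negative libraries, with 21.5% in CTR and 30.3% in RA. FZD1 was at 211, 88.8, 164 and 262 CPM. It was 2.37 times lower with RA in GFP-positive cells (2.26 to 2.49) and 1.60 times as high with RA in GFP-negative cells (1.49 to 1.73), so that the RA libraries held both its lowest and its highest level. FZD7, a receptor of pluripotent and mesodermal cells, was at 32.3, 145, 100.3 and 92.4 CPM. Here CTR GFP-positive cells stood low: the RA to CTR ratio was 4.50 in GFP-positive cells (4.19 to 4.84) and 0.921 in GFP-negative cells (0.834 to 1.02). FZD5 was at 13.6, 41.8, 54.9 and 64.0 CPM, again lowest in CTR GFP-positive cells, with a ratio of 3.07 (2.73 to 3.45).

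Beside these differences of the GFP-positive cells stands the stroma sum, which was 3.82 times as high in RA as in CTR GFP-positive cells. Its part in the FZD5 and FZD7 differences was not tested. Of the 7 stroma genes PDGFRA was highest in RA GFP-positive cells, at 132, 295, 87.3 and 139 CPM, and the other 6 were highest in RA GFP-negative cells. Of the 4 smooth muscle genes 3 were at least 2-fold higher with RA in GFP-positive cells. MYH11 and CNN1 were highest in RA GFP-positive cells, and ACTA2, TAGLN and the smooth muscle sum in RA GFP-negative cells. Other lists moved in the GFP-positive libraries as well. The endoderm sum was 2.71 times as high with RA (3 of 9 genes higher and TTR lower), with AFP at 0.279 and 22.6 CPM. The cell cycle sum was 2.21 times as high (2 of 3 genes), and the neural and eye sum 3.56 times through STMN2 alone, at 1.26 and 42.5 CPM, as 1 of the 7 genes over the filter. The pluripotency sum was 9.03 times as high at a low level (0.244 and 2.21 CPM), with POU5F1 at 1 and 27 reads, and neither of its genes over the filter reached 2-fold on the log2(CPM + 1) scale. Of the 5 epicardial genes ALDH1A2 and TCF21 were higher and WT1 and TBX18 lower. Among the 4 endothelial genes TEK alone was at least 2-fold higher, at 0.209 and 1.87 CPM, while their sum was 1.21 times lower. Of the 8 cardiomyocyte genes 1 was at least 2-fold lower with RA, MYH7, at 2111 and 664 CPM. Among the 4 pigment cell genes it was DCT alone, at 5.48 and 1.31 CPM, and in neither list was a gene at least 2-fold higher. The part of these lists in the differences of WNT4, FZD1, FZD5, FZD7, RSPO3, LGR5, SFRP1, SFRP5 and DKK2 was not tested.

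FZD2 was at 94.0, 106, 101 and 181 CPM and highest in RA GFP-negative cells. FZD4 was at 71.6, 38.6, 65.6 and 57.8 CPM, FZD8 at 44.8, 26.2, 42.4 and 53.9 CPM, and both were lowest in RA GFP-positive cells. FZD4 shares 18.9% of its exon bases with PRSS23 and FZD8 shares 2.0% with a microRNA gene. FZD6 was at 46.2, 43.2, 77.7 and 58.7 CPM and FZD3, a receptor of axon guidance and planar polarity, at 40.0, 39.0, 41.1 and 25.5 CPM, both within 2-fold in all 4 comparisons. FZD9 was at 2.90, 3.22, 2.98 and 10.8 CPM and stood out in RA GFP-negative cells, 3.63 times above CTR (2.13 to 6.73). FZD10 had 0, 3, 13 and 34 reads; in CTR cultures it was at least 26.4-fold lower in GFP-positive cells, taken against the floor of 3 reads, and the 95% interval of the 2 counts reached down to 18.6-fold.

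The co-receptors LRP5 and LRP6 are needed for the β-catenin branch. LRP5 was at 72.9, 73.5, 88.6 and 119 CPM and LRP6 at 67.2, 55.8, 50.3 and 67.8 CPM. Neither reached 2-fold in any comparison, and per kilobase LRP5 was above LRP6 in every library.

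Among the R-spondins, RSPO3 was the most abundant per kilobase in 3 libraries, and RSPO1 in CTR GFP-negative cells with 48.8% of their sum. RSPO3, which also acts in blood vessel and cardiac development, was at 113, 32.7, 31.1 and 43.7 CPM. CTR GFP-positive cells stood above the other 3 libraries. RSPO3 was 3.46 times lower with RA in GFP-positive cells (3.21 to 3.73), and it was 3.64 times as high in GFP-positive as in GFP-negative CTR cells (3.08 to 4.33). In RA cultures that relation was turned, with RSPO3 1.34 times lower in GFP-positive cells (1.22 to 1.46). RSPO1 was at 3.25, 2.09, 36.8 and 16.7 CPM and RSPO2 at 1.36, 2.36, 16.0 and 7.87 CPM, both high in GFP-negative cells and highest in CTR. RSPO4 was at 7.71, 12.1, 7.45 and 3.97 CPM, 3.04 times as high in GFP-positive as in GFP-negative cells of RA cultures (2.42 to 3.83), and level in CTR.

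The LGR receptors bind the R-spondins. LGR4, by far the most abundant per kilobase, held 99.2%, 88.7%, 91.3% and 82.1% of their sum. It was at 214, 113, 159.5 and 159.5 CPM, 1.89 times lower with RA in GFP-positive cells (1.81 to 1.98), just short of 2-fold. LGR5, a marker of epithelial stem cells in several organs, was at 1.40, 11.0, 10.9 and 17.9 CPM. It was scarce in CTR GFP-positive cells alone, with 40 reads against 293 in RA GFP-positive cells, a ratio of 7.85 (5.63 to 11.2). LGR6 had 2, 20, 7 and 247 reads, or 0.0698, 0.748, 1.49 and 9.63 CPM, and was 6.46 times as high with RA in GFP-negative cells (3.09 to 16.2).

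Promoter windows of RefSeq (GRCh38.p14, 250 bases before to 50 after a start site) matched 33 of the 49 members, with 38 windows. The TCF/LEF motif CTTTGAT, read on both strands, was in none of the 38 and in 2.62% of all 35116 windows. The direct repeat of AGGTCA with 5 bases between, a form of retinoic acid response element, was in none of the 38 either and in 2 of all windows. A single AGGTCA, searched after these results were seen and itself a part of the repeat, was in windows of LGR6, WNT2 and WNT16 and in 13.8% of all windows. The 120 bases before the start are given for RSPO3, which was at least 2-fold lower with RA in GFP-positive cells, for SFRP5, an antagonist highest in that library, and for the one of the 3 LGR6 starts with a match, whose letters are in capitals (on the reverse strand). They lie at chr6:127118551-127118670 (plus strand), chr10:97772000-97772119 (minus strand) and chr1:202203592-202203711 (plus strand), upstream of the annotated starts. G and C made up 75%, 78.3% and 50.0% of them. A match in these letters is a description and not a binding site.
RSPO3: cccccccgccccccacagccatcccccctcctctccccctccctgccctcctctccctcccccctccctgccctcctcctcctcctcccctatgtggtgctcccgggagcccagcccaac
SFRP5: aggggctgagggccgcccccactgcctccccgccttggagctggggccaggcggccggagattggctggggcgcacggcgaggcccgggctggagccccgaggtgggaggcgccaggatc
LGR6: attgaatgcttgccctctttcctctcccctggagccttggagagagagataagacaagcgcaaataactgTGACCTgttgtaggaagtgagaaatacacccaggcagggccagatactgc

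The summed level of the secreted antagonists per kilobase of merged exons was 100.2, 290.2, 210.3 and 280.2 CPM per kb, so that it was 2.90 times as high in RA as in CTR GFP-positive cells, and it was less far apart in the GFP-negative libraries. With MANE Select lengths the sum was 161 in CTR and 356 CPM per kb in RA GFP-positive cells. SFRP1 was the most abundant of them per kilobase in 3 libraries, and SFRP2 in CTR GFP-negative cells with 47.5% of the sum. SFRP1, a soluble protein with a Frizzled-type WNT-binding domain, was at 228, 852, 216 and 648 CPM. Both RA libraries were above both CTR libraries: the ratio was 3.74 in GFP-positive cells (3.64 to 3.85) and 3.00 in GFP-negative cells (2.81 to 3.20). Between the fractions SFRP1 was within 2-fold. SFRP5, its relative, was at 32.6, 145, 57.3 and 62.0 CPM. It was 4.45 times as high with RA in GFP-positive cells (4.14 to 4.78) and level in GFP-negative cells, with a ratio of 1.08 (0.95 to 1.24).

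Of the 43 members over the filter, SFRP1, SFRP5, WNT5A, RSPO4 and FZD7 had their highest level in RA GFP-positive cells. The part of stroma and smooth muscle genes in these levels was not tested.

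SFRP2 was at 6.77, 4.37, 199 and 61.7 CPM and marked the GFP-negative cells, 29.4 times higher there in CTR (25.2 to 34.5) and 14.1 times in RA cultures (11.7 to 17.2). With RA it was 3.23 times lower in GFP-negative cells (2.98 to 3.50), the opposite of SFRP1. The pigment cell, neural and eye, cardiomyocyte and epicardial sums were lower with RA in the same comparison, and their part in the SFRP2 difference was not tested. SFRP4 was at 0.907, 0.972, 8.94 and 4.75 CPM, also higher in GFP-negative cells. FRZB, an antagonist first found in cartilage, was at 22.0, 18.3, 20.7 and 73.7 CPM and high in RA GFP-negative cells alone, 3.57 times above CTR (2.91 to 4.42). WIF1, which binds WNT proteins directly, had 0, 1, 1 and 58 reads, so that it too was seen mainly in RA GFP-negative cells.

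DKK1, which blocks LRP5 and LRP6, was at 17.0, 20.1, 21.7 and 59.5 CPM, 2.74 times as high with RA in GFP-negative cells (2.24 to 3.38). DKK2, which acts on the same co-receptors, was at 0.279, 1.91, 7.24 and 40.6 CPM. RA cells were above CTR cells in both fractions, 6.83 times on 51 and 8 reads in GFP-positive cells (3.22 to 16.7) and 5.61 times in GFP-negative cells (3.99 to 8.14). DKK3, a divergent member of the family, was at 180.2, 169.9, 149 and 154 CPM and differed little. It shares 47.5% of its exon bases with USP47, and its merged exons (11958 bases) are longer than its MANE Select transcript (2525 bases). With the latter length DKK3 was above SFRP1 in CTR GFP-positive cells, at 71.4 against 51.0 CPM per kb. DKK1 shares 10.2% of its exon bases with PRKG1-AS1. DKK4 had 0 reads in every library, and the 95% upper limit of that count was 0.786 CPM in the shallowest.

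Markers of endoderm moved with the antagonists that were higher in RA GFP-negative cells. Of the 9 gut and liver endoderm genes 8 were at least 2-fold higher with RA, their sum was 8.0 times as high, AFP was the most abundant of them with RA at 465 CPM, and FOXA2 had 0 reads in CTR GFP-negative cells. The ninth, TTR, was lower with RA, at 73.0 and 11.7 CPM, and was the most abundant of the list in CTR GFP-negative cells. Stroma genes were higher as well, 4 of 7 at least 2-fold, and their sum was 1.92 times as high. Of the pluripotency genes, the 2 over the filter were also at least 2-fold higher, and POU5F1 had 0 reads in CTR and 15.4 CPM in RA cells. The smooth muscle sum was 1.90 times as high, with 1 of 4 genes at least 2-fold higher. Among the 4 endothelial genes 1 was at least 2-fold higher, ERG, at 6.81 and 16.3 CPM, while their sum was 1.14 times lower. The part of these lists in the differences of WNT6, WNT10A, WNT10B, FZD9, LGR6, SFRP1, FRZB, DKK1, DKK2 and WIF1 was not tested.

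**Figure D3:**
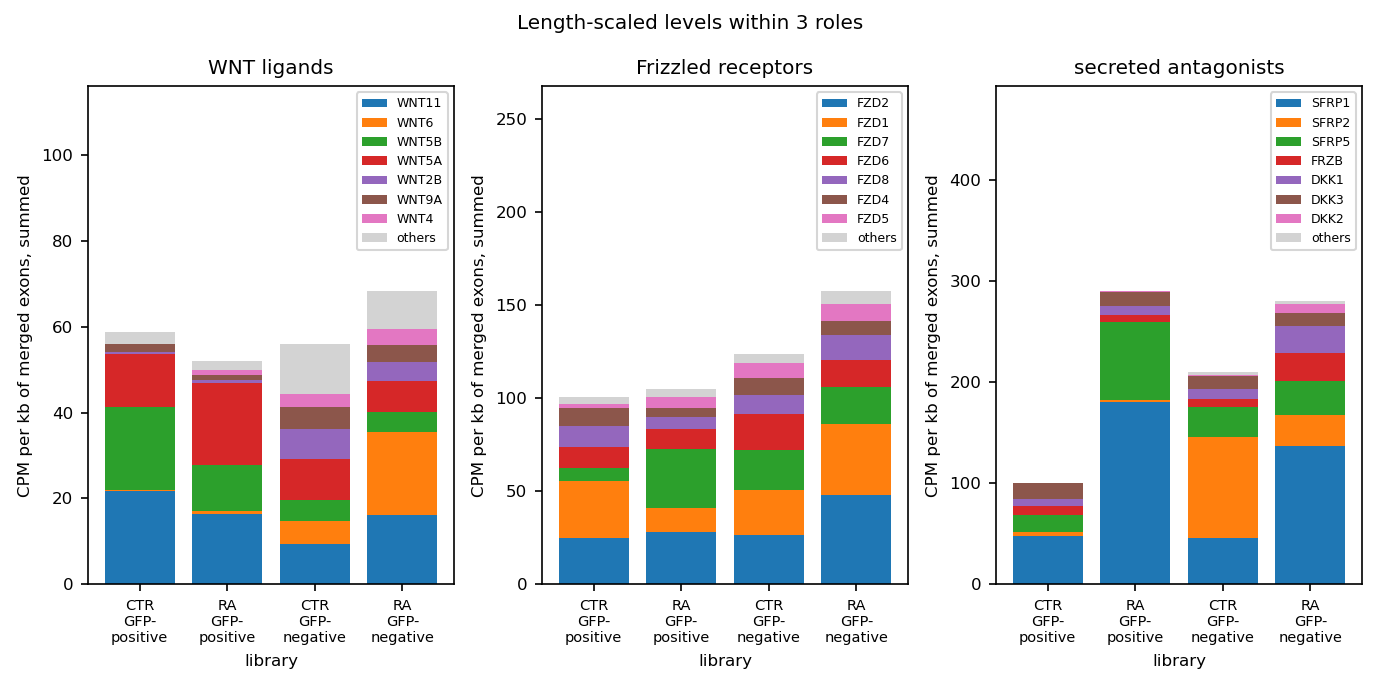
Summed CPM per kilobase of merged exons of the ligands, Frizzleds and antagonists in the 4 libraries (bars, 1 library each), split by gene, with the 7 genes of highest level named. Among the antagonist bars that of CTR GFP-positive cells is the lowest (100.2 CPM per kb), and SFRP1 fills most of that of RA GFP-positive cells (62.0%).

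AXIN2, whose transcription follows β-catenin signalling, was at 10.0, 11.3, 26.8 and 18.7 CPM. It was 2.68 times lower in the GFP-positive than the GFP-negative fraction of CTR cultures (2.16 to 3.31) and 1.66 times lower in RA (1.43 to 1.92). CTR and RA did not separate in GFP-positive cells, with a CTR to RA ratio of 0.887 (0.752 to 1.05), and in GFP-negative cells AXIN2 was 1.43 times lower with RA (1.17 to 1.75). Of its exon bases 25.3% are shared with an overlapping gene.

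**Figure D4:**
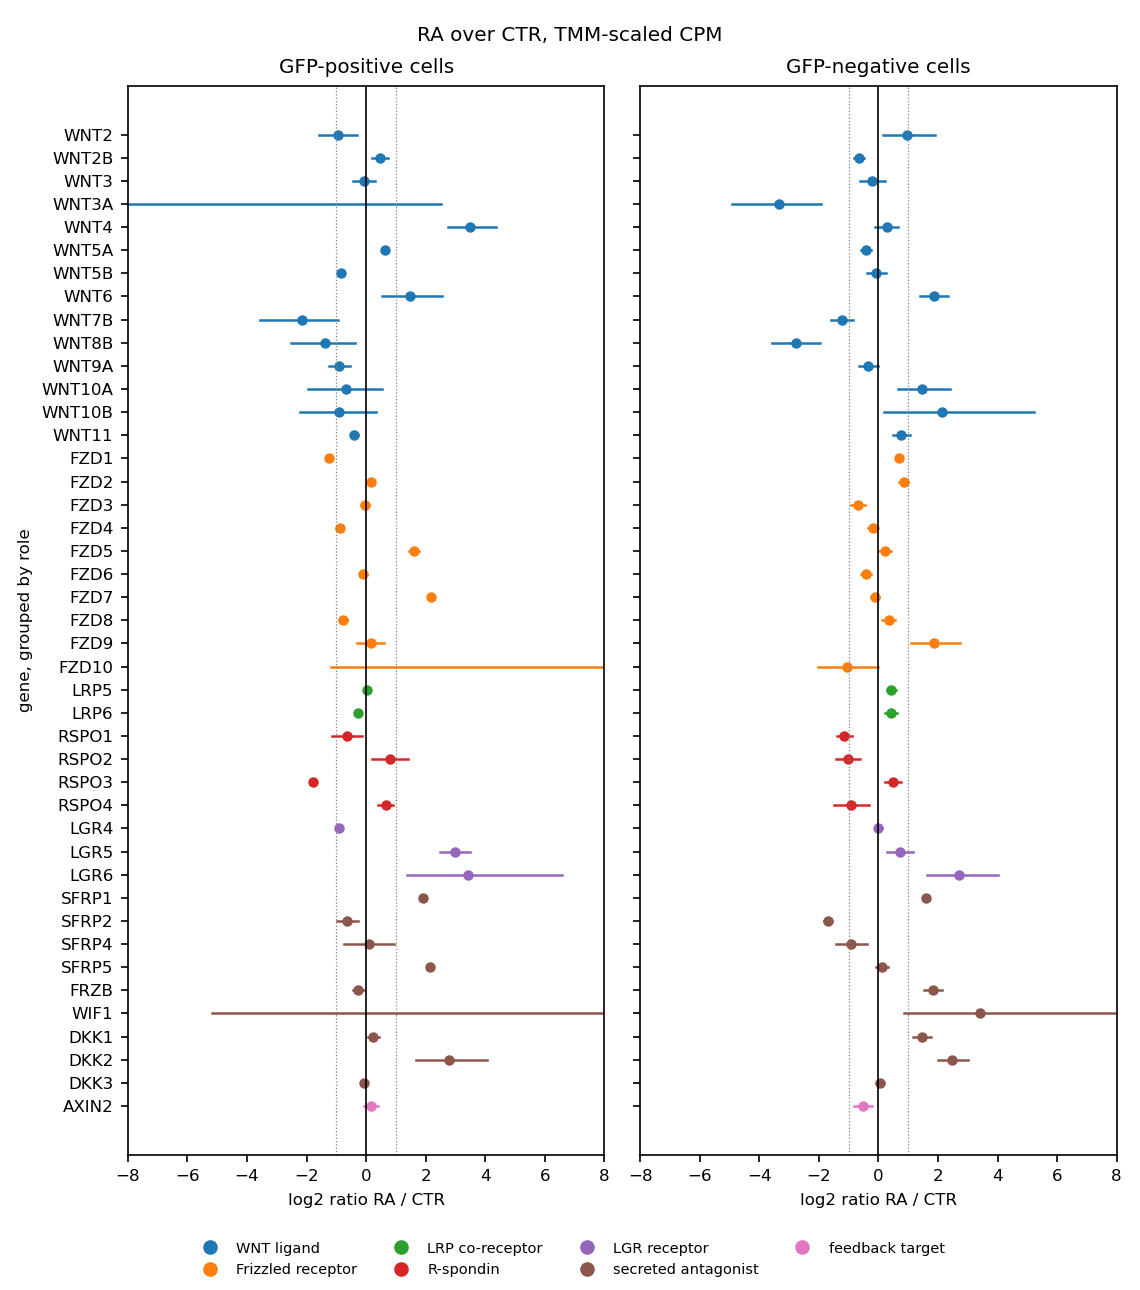
Ratio of RA to CTR CPM on a log2 axis for the 43 members, in GFP-positive (left) and GFP-negative (right) cells; lines are 95% counting intervals, clipped at the plot edge, and dotted lines mark 2-fold. RSPO3 and FZD1 lie left of 0 in the left panel and right of 0 in the right panel, and SFRP1 lies to the right in both (3.74 and 3.00 times).

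Another 51 genes of the pathway all passed the filter. In GFP-positive cells 4 were at least 2-fold higher with RA (7.84%, and 4.49% of all genes) and 1 was lower (1.96%, and 1.87% of all genes). In GFP-negative cells 7 were higher (13.7%, and 8.19% of all genes) and 3 lower (5.88%, and 7.17% of all genes). Between the fractions of CTR cultures 3 were higher in GFP-positive cells (5.88%, and 13.4% of all genes) and 11 lower (21.6%, and 16.1%), and in RA cultures 0 were higher (9.33% of all genes) and 11 lower (21.6%, and 12.9%). The 11 signal transducers, CTNNB1, APC, AXIN1, GSK3B and the DVL genes among them, reached 2-fold in no comparison; CTNNB1, which encodes β-catenin, was at 369.6, 372, 344 and 347 CPM. TNFRSF19, a receptor gene of the feedback list, was at 212, 31, 79.6 and 53.6 CPM and was 6.85 times lower with RA in GFP-positive cells (6.37 to 7.37). This put its highest level, like that of RSPO3, in CTR GFP-positive cells. GPC3, a cell surface glypican, was at 74.0, 302, 167 and 494 CPM, so that it was higher with RA in both fractions, 4.08 times (3.89 to 4.28) and 2.96 times (2.75 to 3.18). MYC was at 1.81, 6.02, 18.5 and 28.3 CPM and was 3.32 times as high with RA in GFP-positive cells (2.41 to 4.63).

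ROR1, a receptor for WNT5A, was at 46.7, 51.6, 31.5 and 107 CPM, 3.38 times as high with RA in GFP-negative cells (2.87 to 4.02), and its relative ROR2 was at 64.1, 43.4, 28.5 and 31.5 CPM. CER1, a secreted antagonist of the early endoderm, was at 0.174, 0.748, 0 and 3.74 CPM and at least 5.86-fold higher with RA in GFP-negative cells, taken against the floor of 3 reads, with a 95% interval that reached down to 4.67-fold. On the log2(CPM + 1) scale, the pathway genes farthest apart between the fractions included KREMEN2, a DKK receptor, at 1.43, 1.53, 22.6 and 15.1 CPM, and NKD2, an intracellular inhibitor, at 6.56, 10.0, 70.7 and 48.6 CPM. TPBG, a membrane inhibitor, was at 11.6, 26.3, 87.3 and 64.0 CPM. All 3 were thus low in GFP-positive cells of both cultures.

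For ligand secretion, WLS, the carrier of WNT proteins, was at 159, 272, 285 and 180.4 CPM and PORCN, the enzyme that adds their lipid, at 25.2, 29.0, 22.6 and 18.1 CPM. Neither reached 2-fold. Of the 14 targets and feedback genes, 4 were at least 2-fold higher with RA in GFP-negative cells, NKD1, RNF43 and SP5 among them (8.19% of all genes were), and 1 was lower, NOTUM (7.17% of all genes). These calls rest on few reads in the shallow CTR GFP-negative library: 13 for NKD1, 25 for RNF43, 1 for SP5 and 22 for NOTUM. The RA GFP-negative library held 204, 324, 42 and 46 reads of them, and SP5 passed the filter through that library alone. In GFP-positive cells 1 was higher, MYC (4.49% of all genes), and 1 lower, TNFRSF19 (1.87%), on the log2(CPM + 1) scale. SP5 fell short of 2-fold on that scale, with a difference of 0.68, on 16 reads in RA and 0 in CTR GFP-positive cells. Taken against the floor of 3 reads, SP5 was at least 5.71-fold higher with RA there. The counting interval of that SP5 difference reached down to 4.13-fold. ZNRF3 was at 31, 30.8, 17.5 and 25.8 CPM and LEF1, a TCF family factor, at 21.9, 17.6, 18.7 and 16.0 CPM, both within 2-fold throughout. RNF43, which with ZNRF3 removes Frizzleds from the surface, was at 20.1, 13.6, 5.32 and 12.6 CPM and lowest in CTR GFP-negative cells. NKD1 was at 4.68, 5.2, 2.77 and 7.95 CPM and also lowest there. TCF7, also of the TCF family, was at 1.71, 1.65, 3.62 and 4.56 CPM, NOTUM, which strips the lipid from WNT proteins, at 2.58, 1.38, 4.69 and 1.79 CPM, and SP5 at 0, 0.598, 0.213 and 1.64 CPM. In these low genes RA GFP-negative cells were the highest for SP5 and CTR GFP-negative cells for NOTUM. TCF7 was higher in both GFP-negative than in both GFP-positive libraries. Its GFP-negative levels, on 117 reads in RA and 17 in CTR cells, are not ranked here.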

How the data were processed

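RNA of 4 sorted fractions, 1 library each, was analysed. The authors made strand-specific paired-end libraries, kept reads that GSNAP aligned uniquely to a custom hg19 genome, sorted them with SAMtools 0.1.18 and counted them per Ensembl gene with HTSeq 0.6.1p1 in intersection-nonempty mode without strand; the deposited values are these raw counts. Reads on exon bases shared by overlapping or antisense genes cannot be told apart without strand, and the Ensembl release is not given in the sources used here.

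Gene names, exon lengths and overlaps were taken from GENCODE 44 lifted to GRCh37. Counts were scaled with TMM factors (1.00, 0.951, 1.07 and 0.979, in the order of the report) from edgeR 4.0.16 in R 4.3.3. Differences are of log2(CPM + 1), over genes that reach 1 CPM in any library. Intervals are Clopper-Pearson (scipy 1.17.1), and the functions were tested on simulated data. Every member over the filter was named; of the other pathway genes, the 3 farthest from 0 in each comparison and 11 preset genes were. Alternatives were library size, DESeq2 1.42.0 size factors, library size without mitochondrial genes, other pseudocounts, filters and fold, and thinning; MANE Select lengths and the search for a single AGGTCA were added after the data were seen. Python 3.11.15 with pandas 2.3.3 handled the tables, and matplotlib 3.10.9 the plots. The 4 comparisons share libraries and are not independent. Members and lists were chosen with earlier results of these data known.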

Additional observations from a re-analysis of the deposited data

Results flagged for a closer look

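For 11 of the 43 members the RA difference had opposite signs in the sorted fractions, with both 95% counting intervals off 1. That is 25.6%, and 11.2% of all 19789 genes met the same rule, which genes with more reads meet more easily. Whether the fractions differ was not tested, since each group had 1 library, and the values are the difference in GFP-positive minus that in GFP-negative cells on the log2(CPM + 1) scale. RSPO3 came to -2.24, from -1.76 with GFP and 0.48 without. FRZB came to -2.03, from -0.25 and 1.79, but its opposite sign was lost after thinning to equal reads, where the GFP-positive difference was 0.07. FZD1 came to -1.91, from -1.24 and 0.68. Smaller values below 0 were found for WNT2 (-1.36), WNT11 (-1.14), FZD8 (-1.09) and LRP6 (-0.69). Values above 0, where RA cells were higher in the GFP-positive and lower in the GFP-negative fraction, were found for RSPO2 (1.44), RSPO4 (1.35), WNT2B (1.06) and WNT5A (1.03). Of the 11, FZD1, RSPO3 and FRZB reached 2-fold in a fraction.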

How the results depend on the processing

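Of the 73 member differences of at least 2-fold, none changed sign under the 6 alternatives of scaling, pseudocount and depth. Library size moved the median of all genes by -0.12 and library size without mitochondrial genes by -0.14 in RA against CTR GFP-negative cells, and the other shifts were below 0.1. At 3-fold, RA against CTR in GFP-positive cells left 1 member lower (RSPO3; 0.399% of all genes), in GFP-negative cells 4 higher (2.75%) and 2 lower (1.56%), and GFP-positive against GFP-negative in RA 0 higher (3.59%) and 11 lower (6.40%). With a pseudocount of 5 CPM, 6 were higher (2.35% of all genes) and 1 lower (1.22%) in RA GFP-negative cells, and 12 were lower in the GFP-positive fraction of RA cultures (7.01%). With a pseudocount of 0.25 CPM 4 were lower with RA in GFP-positive cells, WNT7B and WNT8B being added (4.70% of all genes, 1.87% with 1 CPM). With every library thinned to 4371101 reads 4 were lower there too, FZD8 and LGR4 being added (3.98% of all genes). Thinning also took DKK2 from the members higher with RA in GFP-positive cells, WNT7B from those lower with RA in GFP-negative cells, and WNT5B and WNT10A from those apart between the fractions of RA and of CTR cultures. Both library-size scalings took WNT10B from the members higher and added RSPO2 to those lower with RA in GFP-negative cells. Library size without mitochondrial genes also took FZD8 from the members lower in the GFP-positive fraction of RA cultures. A pseudocount of 5 CPM took RSPO4 from those higher in that fraction. With MANE Select lengths, a choice made after seeing the data, WNT6 in RA GFP-negative, WNT11 in CTR GFP-positive, WNT5A in CTR GFP-negative and SFRP1 in CTR GFP-positive cells went from rank 1 to rank 2 of their role. Thinning changed the sign of 13 of 172 member differences, all under 2-fold, FRZB in GFP-positive cells among them. Members with few reads, such as WNT3A, WNT10B and WIF1, are limited by depth, most of all in CTR GFP-negative cells.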
